A study of Mus musculus with 6 samples.

Results

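The 10 genes described here encode receptors and enzymes of purinergic signalling in microglia: P2ry12, P2ry13, P2ry6, P2ry14, P2ry2, P2rx4, P2rx7, Entpd1, Nt5e and Adora3. They are a named list, with no threshold on their measured values, and were found through the transcript accession that the array files give for each probe. All 10 were among the 23462 genes that could be named on the array, and 15 probes, each printed as 1 spot, measured them. Gene expression was measured on 1-colour arrays in microglia of PGC-1αf/f and mPGC-1α mice (3 arrays each), labelled male and 10 weeks old and of C57BL/6 background. Both groups carried a PGC-1α allele flanked by loxP sites and linked to eGFP. In mPGC-1α mice a tamoxifen-inducible Cre in the Cx3cr1 locus (Cx3cr1-Cre/ER) served to overexpress PGC-1α in microglia. PGC-1α is a transcriptional coactivator best known for its role in mitochondrial biogenesis. PGC-1αf/f littermates lacking Cre served as controls, so the groups differ in the Cre, its insertion into Cx3cr1 and any induced PGC-1α, which cannot be told apart. The methods describe tamoxifen treatment and a waiting period before experiments and name both genotypes as treated in other assays of the study, without a statement for the mice of these arrays. The cells were pulled out of brain suspensions with an antibody to P2RY12 and magnetic beads, so the product of 1 of the 10 genes was itself the gate. Where nothing says that the arrays of a group came from separate mice, p-values measure only the spread between these samples.

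Purinergic signalling starts when ATP and other nucleotides leave damaged or active cells. P2X receptors are cation channels opened by ATP, and P2Y receptors are G protein-coupled receptors for ATP, ADP, UTP, UDP or UDP-glucose. On the cell surface CD39 (Entpd1) cuts ATP and ADP down to AMP, CD73 (Nt5e) turns AMP into adenosine, and adenosine acts on its own receptors, Adora3 among them. Resting microglia are known for high P2ry12, through which they sense ADP and send processes towards an injury.

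The letters upstream of 4 of the genes are given for orientation, from the RefSeq promoter table of assembly GRCm38.p6, as the 250 bases before the transcript start read 5′ to 3′ along the gene's own strand. P2ry12 and P2ry13 are shown as neighbouring receptors for the same ligand, P2ry2 because it had the largest difference between the groups among the tested genes of the list, and P2rx4 because its window held a binding motif of the ERR receptors, nuclear receptors that PGC-1α is known to coactivate. Capitals mark a motif match.
P2ry12 (chr3:59262986-59263235, minus strand): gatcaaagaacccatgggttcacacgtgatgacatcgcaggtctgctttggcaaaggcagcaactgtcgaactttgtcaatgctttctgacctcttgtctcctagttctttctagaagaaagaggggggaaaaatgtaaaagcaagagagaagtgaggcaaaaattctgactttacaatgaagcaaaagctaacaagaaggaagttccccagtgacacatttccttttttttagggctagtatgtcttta
P2ry13 (chr3:59210883-59211132, minus strand): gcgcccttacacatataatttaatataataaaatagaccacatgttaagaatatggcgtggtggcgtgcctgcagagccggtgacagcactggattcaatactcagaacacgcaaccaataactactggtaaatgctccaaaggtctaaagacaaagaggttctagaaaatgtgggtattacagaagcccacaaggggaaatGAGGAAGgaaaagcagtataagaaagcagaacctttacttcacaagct
P2ry2 (chr7:101012054-101012303, minus strand): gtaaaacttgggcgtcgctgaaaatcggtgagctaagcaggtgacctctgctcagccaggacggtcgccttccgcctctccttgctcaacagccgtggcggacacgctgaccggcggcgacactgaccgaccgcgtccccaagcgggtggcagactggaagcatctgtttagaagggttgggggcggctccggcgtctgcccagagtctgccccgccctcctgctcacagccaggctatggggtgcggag
P2rx4 (chr5:122707294-122707543, plus strand): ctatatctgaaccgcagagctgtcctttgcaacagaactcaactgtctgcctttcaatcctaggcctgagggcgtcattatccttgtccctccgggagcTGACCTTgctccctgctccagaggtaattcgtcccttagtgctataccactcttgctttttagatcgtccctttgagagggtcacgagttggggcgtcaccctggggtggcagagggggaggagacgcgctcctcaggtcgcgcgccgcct
Of the 10 genes, 9 had at least 1 promoter in the table (P2ry6 had none), with 15 promoters in all. Searched on both strands, the ERR motif AAGGTCA was found in 2 of the 15 promoters, that of P2rx4 and an alternative start of P2ry14, and in 4.08% of the 32851 promoters in the table. The PU.1 letters GAGGAAG, for the myeloid factor PU.1, were found in 4 of the 15 (P2ry13, Adora3 and 1 start each of P2ry14 and Entpd1) and in 10.6% of all promoters. The AP-1 letters TGANTCA were found in 4 of the 15 (2 starts of P2ry14, 1 of P2rx7 and Adora3) and in 6.75% of all promoters. None of these motifs overlapped another in the windows shown, and the windows of P2ry12 and P2ry2 held none of them.

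Of 59305 spots on an array, between 27025 and 30272 were well above background and 0 were saturated. The 6 arrays lay on 1 slide, PGC-1αf/f in the first row and mPGC-1α in the second, so row and group cannot be told apart. All 13 microglia markers, such as Tmem119 and Csf1r, were well above background on every array. The Y-linked genes were well above background on 5 arrays, but none of the 4 was on mPGC-1α replicate 3, which is labelled male like the others. Xist, read as a check of the sex label, was highest on that array, at -1.63. It read -2.40 on mPGC-1α replicate 2, -2.78 on PGC-1αf/f replicate 2 and -5.44 or lower on the rest. PGC-1αf/f replicate 3 stood apart as well, its correlation with the other arrays averaging 0.93, against 0.96 to 0.97 for the rest. The blood leukocyte markers had a mean value of -0.63 there and of 1.99 to 2.72 on the other 5 arrays. Where leaving out 1 array moved a difference by over 1.5 times, the value without such an array, or the range, is given. Values here are log2 intensities after subtraction of the 75th percentile of the array's own spots, and a difference is mPGC-1α minus PGC-1αf/f. Different probes bind with different strength, so levels of different genes are not ranked against each other.

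Ppargc1a, which encodes PGC-1α, was 0.80 higher in mPGC-1α microglia at its brighter probe (SE 0.35, limma adjusted p = 0.306), and the groups overlapped. This was 0.44 without PGC-1αf/f replicate 3, and it passed the threshold only with array weights (0.74, limma adjusted p = 0.034). Cx3cr1, the locus carrying Cre, differed by -0.51 (SE 0.14, limma adjusted p = 0.194) without overlap of the groups, and it too passed only with array weights (-0.39, limma adjusted p = 0.034).

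To determine whether purinergic genes differed between mPGC-1α and PGC-1αf/f microglia, every probe of the list was examined. P2ry2 had a higher mean in mPGC-1α microglia, by 1.48 on the log2 scale, and the P2ry12, P2ry13, P2rx7, Entpd1 and Adora3 means were lower by 0.11 to 0.31, but none of the 10 genes passed the test. Other settings moved these 5 differences. The range was -0.52 to -0.22 with quantile normalization and -0.51 to -0.25 with each array centred on its median. Centring on the median also moved the median of all probes to -0.14. With array weights the range was -0.23 to -0.01, and without PGC-1αf/f replicate 3 it was -0.27 to -0.03. The microglia markers were lower in 10 of 13 genes (median -0.13, or -0.07 and 7 genes without PGC-1αf/f replicate 1), 2 of the 8 with values on all arrays lower without overlap. In detail, 9 of the 10 genes, with 13 of the 15 probes, stood well above background throughout 1 group or both and were tested. Among these 13 probes, 0 passed an adjusted p of 0.05 in limma, against 0.0792% of all 25257 probes with a p (0.0713% higher and 0.00792% lower). At an unadjusted limma p under 0.05, 1 of 13 probes was called, higher in mPGC-1α, against 16.7% of all probes (7.53% higher and 9.21% lower). With the brightest complete probe standing for each gene, 3 genes were higher and 6 lower, with a median difference of -0.11 (-0.03 without PGC-1αf/f replicate 3), against 0.02 for all 13127 tested genes. Of the 7 genes with 6 values, 3 showed no overlap between the groups, 2 higher (P2ry2 and Nt5e) and 1 lower (Entpd1). Nt5e was at background in all controls and entered only through the mPGC-1α arrays. Over all probes with 6 values, 25.2% did not overlap, 11.4% higher and 13.7% lower.

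**Figure D1:**
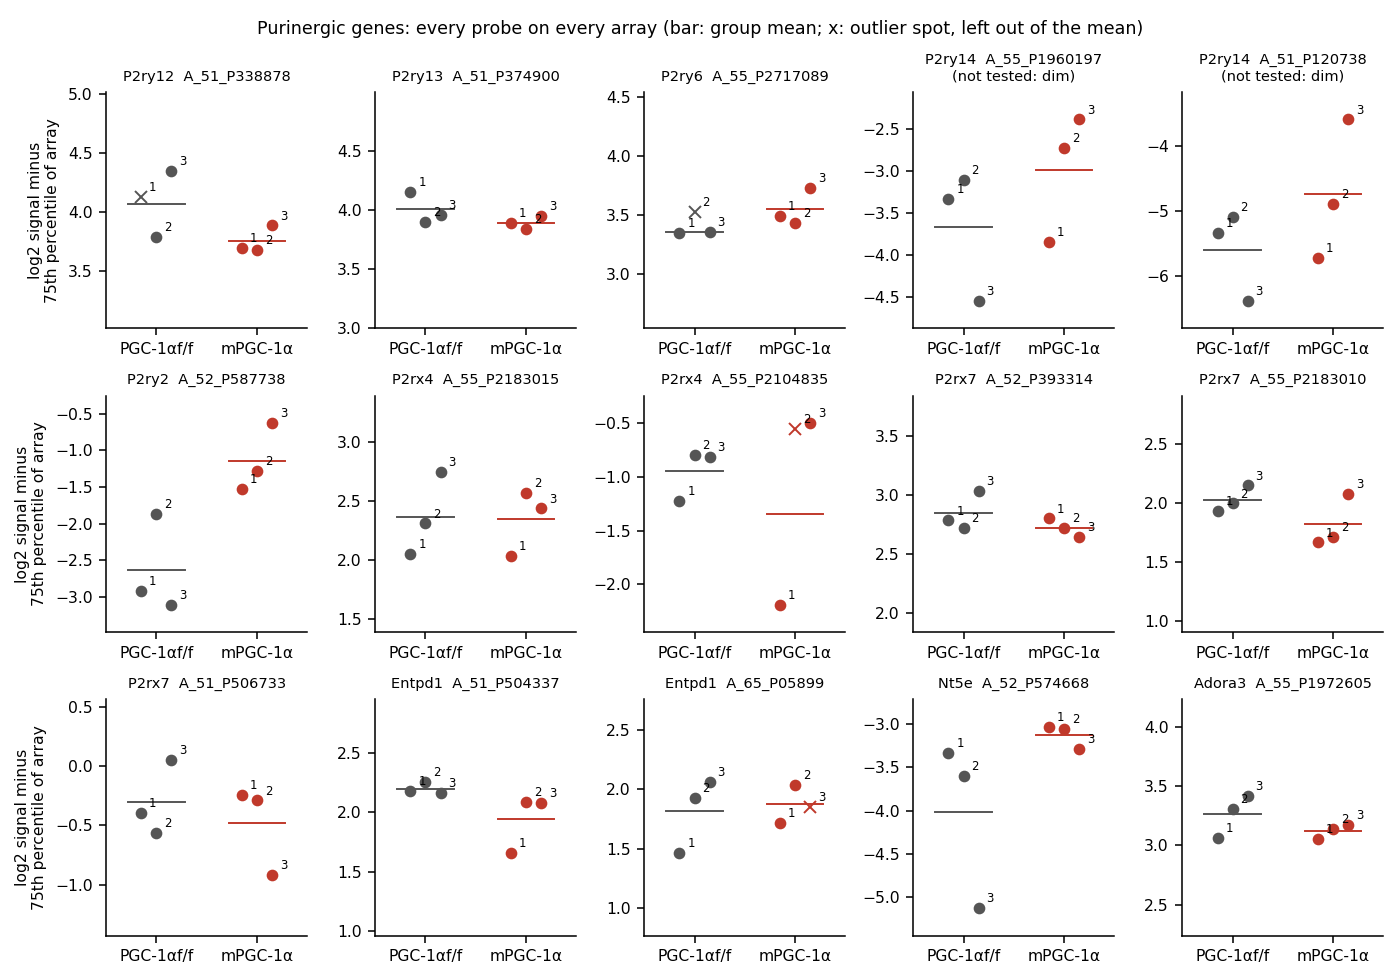
Normalized log2 signal, relative to the 75th percentile of its array (y axis), for each of the 15 probes on the 3 PGC-1αf/f (grey) and 3 mPGC-1α (red) arrays, with the replicate number beside each point, the group mean as a bar and spots the scanner software flagged as outliers as crosses. Among tested probes with 6 unflagged values, only P2ry2, Nt5e and the brighter Entpd1 probe separate the groups. Both P2ry14 probes and, in PGC-1αf/f, the Nt5e probe were too dim to be well above background on every array, and the y axis differs between panels.

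P2ry12 is the ADP receptor used for the selection of the cells and a marker of resting microglia. Its 1 probe (A_51_P338878) read 3.79 and 4.35 on PGC-1αf/f replicates 2 and 3, against 3.70, 3.68 and 3.89 on the arrays of mPGC-1α. The spot of PGC-1αf/f replicate 1, at 4.13, was flagged as an outlier and left out. The lowest PGC-1αf/f reading lay below the highest mPGC-1α value, so the groups overlapped. Means of 4.07 ± 0.40 (SD, n = 2) and 3.76 ± 0.12 (SD, n = 3) resulted. They differed by -0.31 (SE 0.21, 95% interval -0.84 to 0.21, limma adjusted p = 0.478), or by -0.33 with the outlier spot kept (limma adjusted p = 0.369). The difference was -0.03 without PGC-1αf/f replicate 3, -0.59 without PGC-1αf/f replicate 2 and -0.11 between the 2 arrays in slide column 2. P2ry12 was well above background on all 6 arrays, and the part of the selection through P2RY12 in the difference was not tested. In such bulk samples, fewer cells of a type and less RNA per cell cannot be told apart.

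P2ry13 encodes a second ADP receptor and lies beside P2ry12 on chromosome 3, within the larger gene Med12l. Its probe (A_51_P374900) read 4.16, 3.90 and 3.96 in PGC-1αf/f cells and 3.89, 3.84 and 3.95 in mPGC-1α cells. The highest value was a PGC-1αf/f array and the others interleaved. The means of 4.01 ± 0.13 and 3.89 ± 0.05 (SD, n = 3 each) differed by -0.11 (SE 0.13, 95% interval -0.43 to 0.20, limma adjusted p = 0.677), or by -0.04 without PGC-1αf/f replicate 1. The exact two-sided permutation p was 0.2, where 3 arrays against 3 allow no value below 0.1. Med12l, the gene around both receptors, differed by -0.27 at its brightest probe (SE 0.22, limma adjusted p = 0.543), and by -0.07 without PGC-1αf/f replicate 3, and its other 2 probes were too dim to be tested.

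P2ry6, the UDP receptor linked to microglial phagocytosis, was read by 1 probe (A_55_P2717089). The PGC-1αf/f values were 3.35 and 3.36 on replicates 1 and 3, with an outlier-flagged spot at 3.52 on replicate 2, and the mPGC-1α values were 3.49, 3.43 and 3.73. The 3 mPGC-1α values lay above the 2 unflagged PGC-1αf/f values, and the flagged spot lay among them. The difference was 0.20 (SE 0.16, 95% interval -0.20 to 0.60, limma adjusted p = 0.555), or 0.14 with the flagged spot kept. Without mPGC-1α replicate 3 it was 0.11.

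P2ry2 lies next to P2ry6 on chromosome 7 and encodes a receptor for ATP and UTP. Its probe (A_52_P587738) was well above background on all 6 arrays. It read -2.91, -1.86 and -3.10 in PGC-1αf/f cells and -1.52, -1.28 and -0.63 in mPGC-1α cells. All 3 mPGC-1α arrays were above all 3 PGC-1αf/f arrays, and mPGC-1α replicate 3 was the highest. The means were -2.63 ± 0.67 and -1.14 ± 0.46 (SD, n = 3 each). The difference of 1.48 (SE 0.37, 95% interval 0.60 to 2.37), or 2.80-fold, had an unadjusted limma p of 0.0055 and an adjusted p of 0.167. The exact two-sided permutation p was 0.1, the smallest that 3 against 3 can give.

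The P2ry2 difference varied with the arrays that entered it. Within slide column 1 it was 1.39 and within column 2 it was 0.58. Without PGC-1αf/f replicate 3 it was 1.25, without mPGC-1α replicate 3 it was 1.23, and without both it was 0.99. With weights for array quality it was 0.75. In the deposited table without normalization between arrays it was 1.45 and passed the threshold (limma adjusted p = 0.041), as did 1.81% of all probes there. In that setting limma gave the listed genes with 6 values the same SE of 0.43, so the call follows the size of the difference alone. The blood leukocyte markers were also higher in mPGC-1α microglia, in 16 of 17 tested genes (median 1.24, or 0.35 without PGC-1αf/f replicate 3), with list means of 1.99, 2.46 and -0.63 in the controls against 2.28, 2.59 and 2.72 in mPGC-1α. Border macrophage markers were higher in 9 of 9 genes (median 0.27, or 0.04 with 5 of 9 higher without mPGC-1α replicate 3), with list means of 0.68 to 0.92 and 0.78 to 1.49. Endothelial and mural markers were higher in 6 of 6 genes (median 0.76, or 0.06 without PGC-1αf/f replicate 3), with list means of -1.86 to -0.29 and -0.68 to 0.04. Oligodendrocyte markers were lower in 10 of 11 genes (median -0.61), 7 of them lower without overlap, where 13.7% of all probes were, with list means of -0.15, -0.06 and 0.44 in the controls against -0.48, -0.65 and -0.71 in mPGC-1α. In these 4 lists, 0 genes passed the adjusted threshold in limma. At an unadjusted p under 0.05, 6 of 11 oligodendrocyte genes and 1 of 17 leukocyte genes were lower, against 9.21% of all probes. Without overlap, 3 of 17 leukocyte, 1 of 8 border macrophage and 1 of 6 endothelial genes were higher, where 11.4% of all probes were, and 1 of 17 leukocyte genes was lower. The part of these lists in the differences of P2ry2 and P2ry12 was not tested.

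**Figure D2:**
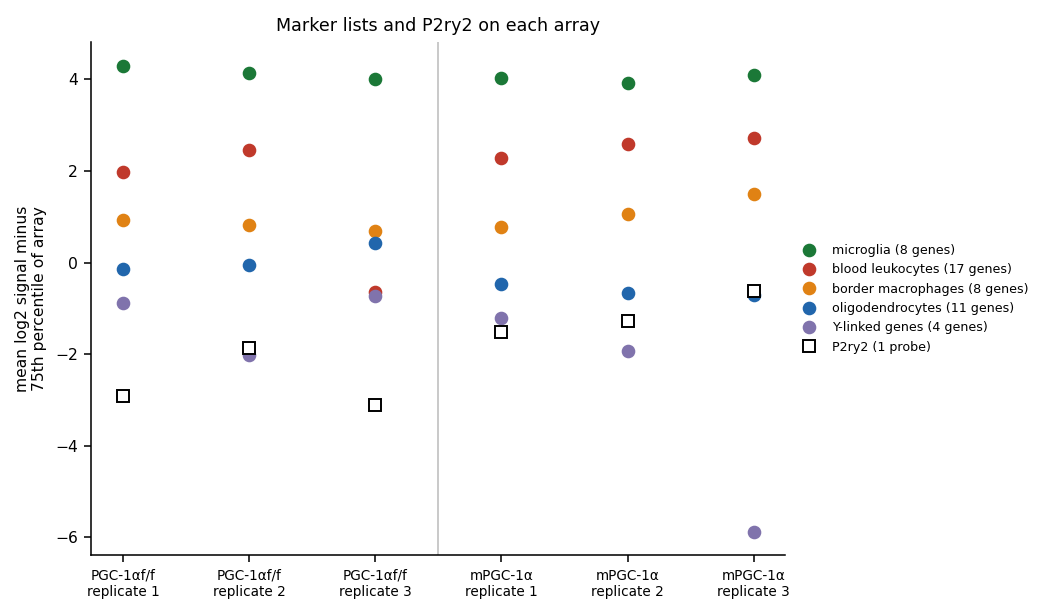
Normalized log2 signal, relative to the 75th percentile of its array (y axis), as the mean of 5 marker lists (filled circles) and the value of the P2ry2 probe (open squares) on each of the 6 arrays. The leukocyte mean drops on PGC-1αf/f replicate 3 and the Y-linked mean on mPGC-1α replicate 3, while the microglia mean stays between 3.92 and 4.29 and P2ry2 is lowest on PGC-1αf/f replicates 1 and 3.

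P2ry14, the UDP-glucose receptor, was near the limit of detection. Its brighter probe (A_55_P1960197) read -3.33, -3.10 and -4.55 in PGC-1αf/f cells and -3.84, -2.72 and -2.38 in mPGC-1α cells, and was well above background on 1 and 2 of 3 arrays. The second probe (A_51_P120738), designed for another transcript, ranged from -6.39 to -5.10 and from -5.73 to -3.60, and no array showed it well above background. Both probes overlapped between the groups and were not tested by limma (exact two-sided permutation p = 0.4 for each).

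P2rx4 and P2rx7 lie next to each other on chromosome 5 and encode ATP-gated cation channels. P2rx4 is linked to microglial responses after nerve injury, and P2rx7 opens at high ATP and is a known trigger of the NLRP3 inflammasome. The brighter P2rx4 probe (A_55_P2183015) read 2.05, 2.31 and 2.75 in PGC-1αf/f cells and 2.04, 2.57 and 2.44 in mPGC-1α cells. The spread within each group exceeded the difference of -0.02 between them (SE 0.23, 95% interval -0.56 to 0.52, limma adjusted p = 0.970). Its sign turned with the arrays used, for example to 0.17 without PGC-1αf/f replicate 3.

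A second P2rx4 probe (A_55_P2104835), dimmer although designed for the same transcript, read -1.22, -0.79 and -0.82 in PGC-1αf/f cells and -2.19 and -0.50 on mPGC-1α replicates 1 and 3, with an outlier-flagged spot at -0.55 on replicate 2. Here the mPGC-1α arrays took both the lowest and the highest value. The difference was -0.40 (SE 0.49, limma adjusted p = 0.696), and it turned to 0.45 without mPGC-1α replicate 1 and reached -1.25 without mPGC-1α replicate 3. Camkk2, which overlaps P2rx4 in the genome, differed by -0.12 at its brightest probe (limma adjusted p = 0.665), or by -0.05 without PGC-1αf/f replicate 3. Its other tested probe differed by 0.31 (limma adjusted p = 0.416), by 0.18 without PGC-1αf/f replicate 3 and by 0.47 without PGC-1αf/f replicate 1. That probe was well above background on 2 of 3 PGC-1αf/f arrays and passed the filter only through the mPGC-1α arrays, where it was brighter.

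P2rx7 was measured by 3 probes, each designed for a different transcript. The brightest (A_52_P393314) read 2.78, 2.72 and 3.03 in PGC-1αf/f cells and 2.80, 2.72 and 2.65 in mPGC-1α cells. PGC-1αf/f replicate 3 was the highest and the other 5 arrays lay close together. The difference was -0.12 (SE 0.14, 95% interval -0.46 to 0.21, limma adjusted p = 0.674), and it was -0.03 without PGC-1αf/f replicate 3 and -0.19 without replicate 2. The second probe (A_55_P2183010) ranged from 1.93 to 2.15 and from 1.67 to 2.08 and differed by -0.21 (SE 0.16, limma adjusted p = 0.526), with a range of -0.34 to -0.13 when 1 array was left out. The third (A_51_P506733) ranged from -0.56 to 0.06 and from -0.92 to -0.24 and differed by -0.18 (SE 0.25, limma adjusted p = 0.725), or by 0.04 without mPGC-1α replicate 3. The groups overlapped at all 3 probes.

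**Figure D3:**
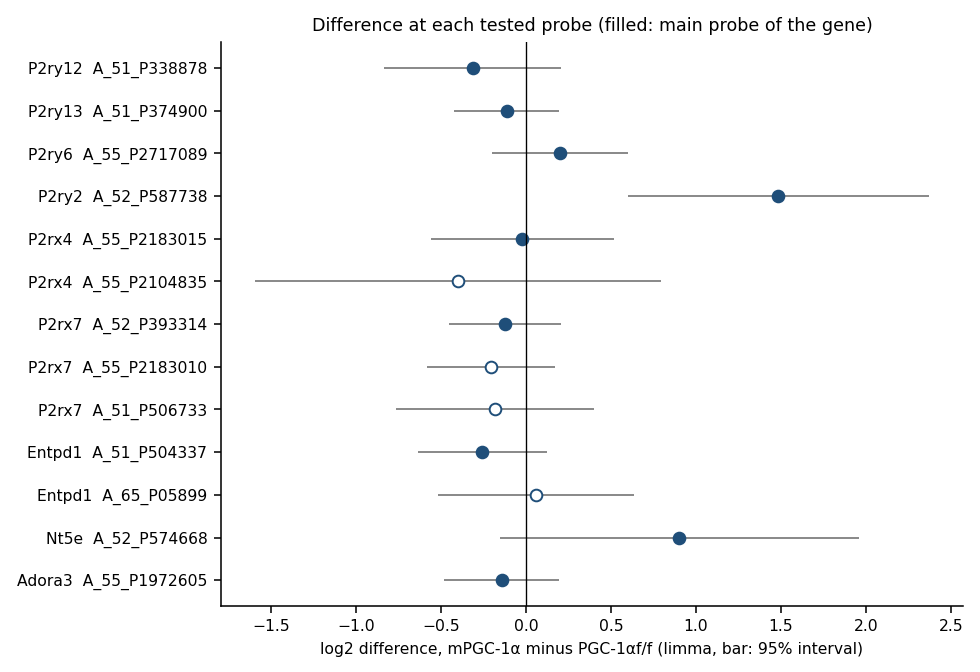
Difference in log2 signal, mPGC-1α minus PGC-1αf/f (x axis), at each of the 13 tested probes, with the 95% interval from limma as a line and the main probe of each gene filled. The interval of P2ry2, from 0.60 to 2.37, is the only one that leaves out 0, at an adjusted p of 0.167, while the other main probes lie between -0.31 and 0.90.

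Entpd1 encodes CD39, which starts the breakdown of ATP outside the cell. Its brighter probe (A_51_P504337) read 2.18, 2.26 and 2.16 in PGC-1αf/f cells and 1.66, 2.09 and 2.08 in mPGC-1α cells. The 3 mPGC-1α values were all below the 3 PGC-1αf/f values, with replicate 1 farthest down. The means of 2.20 ± 0.05 and 1.94 ± 0.25 (SD, n = 3 each) differed by -0.26 (SE 0.16, 95% interval -0.63 to 0.12, limma adjusted p = 0.437, exact two-sided permutation p = 0.1). Without mPGC-1α replicate 1 the difference was -0.11. A second probe for another transcript (A_65_P05899) read 1.46, 1.93 and 2.07 in the controls, and 1.71 and 2.04 on mPGC-1α replicates 1 and 2 with a flagged spot at 1.85 on replicate 3. It differed by 0.06 (SE 0.23, limma adjusted p = 0.915), and the sign turned to -0.12 without PGC-1αf/f replicate 1.

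Nt5e encodes CD73, the enzyme that makes adenosine from AMP. Its probe (A_52_P574668) read -3.34, -3.60 and -5.13 on the control arrays, where it was never well above background, and -3.03, -3.05 and -3.28 for mPGC-1α, where it was on all 3. The groups did not overlap, but the gene entered the test only through the group in which it was brighter. Measured against the lowest signal well above background, it was at least 1.43-fold higher in mPGC-1α microglia over these arrays, or at least 1.19-fold without PGC-1αf/f replicate 3. The bound covers the detection limit and not the spread between arrays. The measured means were -4.02 ± 0.97 and -3.12 ± 0.14 (SD, n = 3 each), with a limma adjusted p of 0.350 and an exact two-sided permutation p of 0.1. PGC-1αf/f replicate 3 set much of the fitted difference of 0.90 (SE 0.45, 95% interval -0.15 to 1.96), which was 0.35 without it.

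Adora3 encodes the A3 adenosine receptor, which acts with P2RY12 in the movement of microglial processes. Its probe (A_55_P1972605) read 3.07, 3.31 and 3.42 in PGC-1αf/f cells and 3.05, 3.14 and 3.17 in mPGC-1α cells. PGC-1αf/f replicate 1 lay among the mPGC-1α arrays. The difference was -0.14 (SE 0.14, 95% interval -0.48 to 0.19, limma adjusted p = 0.625, exact two-sided permutation p = 0.3). It was -0.07 without PGC-1αf/f replicate 3 and -0.24 without PGC-1αf/f replicate 1. Adora3 lies inside the gene Tmigd3, whose probe was well above background on 2 of 3 arrays in each group and was not tested.

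The rest of the purinergic system was read from 5 lists with 55 genes, 44 of them tested. None of the 44 passed the adjusted threshold in limma, and 6 had an unadjusted p under 0.05, 4 higher and 2 lower, against 16.7% of all probes. By sign, 27 were higher and 17 lower, with a median of 0.06 (0.02 to 0.11 with 1 array left out). Of the 35 with values on all arrays, 4 were higher and 2 lower without overlap, where 11.4% and 13.7% of all probes were. Adora2b and Entpd3 passed the filter only through the mPGC-1α arrays, where they were brighter, and lend the counts of higher genes no weight. Both are among the higher genes by sign and by unadjusted p, and Adora2b is also among those without overlap.

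Among 9 other P2 receptors only P2rx1, P2rx2 and P2ry10b were tested. P2rx1 and P2rx2 differed by -0.15 and -0.16, and with 1 array left out their differences ranged from -0.37 to 0.00 and from -0.32 to 0.03. P2ry10b, related to lysophosphatidylserine receptors and named here after its values were seen, read -0.30 and 0.13 on 2 control arrays against -0.94, -0.77 and -0.87 for mPGC-1α. It differed by -0.78 (SE 0.19, limma adjusted p = 0.171), with 1 outlier spot left out.

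The other adenosine receptors were all tested and all 3 were higher in mPGC-1α microglia, with a median of 0.49 (0.28 without PGC-1αf/f replicate 3). Adora2b entered this count only through the mPGC-1α arrays, where it was brighter, and lends it no weight. Adora2b, the low-affinity A2B receptor, read -3.43, -3.59 and -4.70 in PGC-1αf/f cells and -2.51, -2.82 and -2.80 in mPGC-1α cells. The groups did not overlap, but the probe was well above background on only 1 of 3 PGC-1αf/f arrays. It differed by 1.20 (SE 0.33, limma adjusted p = 0.194), and by 0.80 without PGC-1αf/f replicate 3. Adora1 differed by 0.49 and Adora2a by 0.33 (limma adjusted p 0.352 and 0.530), and with 1 array left out they ranged from 0.25 to 0.69 and from 0.14 to 0.54.

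Of 16 further enzymes that break down nucleotides or handle adenosine, 12 were tested and 10 were higher, with a median of 0.23. Entpd3 entered the count of higher genes only through the mPGC-1α arrays, where it was brighter, and lends it no weight. Cd38, which consumes NAD+ at the cell surface, read -1.27, -0.70 and -1.69 in PGC-1αf/f cells and -0.27, 0.18 and 0.53 in mPGC-1α cells. The groups did not overlap, and the difference was 1.37 (SE 0.30, limma adjusted p = 0.139), or 0.94 without replicate 3 of both groups. Ada, the deaminase that removes adenosine, read -1.85, -0.79 and -1.72 against -0.76, -0.42 and -0.59, a narrow separation. It differed by 0.87 (SE 0.29, limma adjusted p = 0.237), or by 0.43 with array weights. Entpd3, an ectonucleotidase related to CD39 and named after its values were seen, differed by 0.94 with overlapping groups (SE 0.36, limma adjusted p = 0.276), or by 0.59 without PGC-1αf/f replicate 3. Like Adora2b, it was well above background on only 1 of 3 PGC-1αf/f arrays. Adk, which returns adenosine to AMP, differed by 0.42 (SE 0.22, limma adjusted p = 0.363), or by 0.22 without mPGC-1α replicate 1. On the same arrays the leukocyte list was lowest on PGC-1αf/f replicate 3, where Cd38, Adora2b and Entpd3 were lowest too, and its part in these differences was not tested.

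Of 8 genes for nucleotide release and nucleoside transport 7 were tested, 5 higher and 2 lower, with a median of 0.06 (-0.03 to 0.13 with 1 array left out). Of these, the equilibrative nucleoside transporter Slc29a1 differed by -0.34 (SE 0.17, limma adjusted p = 0.356), and Slc28a2 had values on only 3 arrays. All 19 signalling partners of P2RY12 were tested, 9 higher and 10 lower, with a median of -0.02 (-0.12 to 0.05). Rasgrp2 had the largest difference of this list and was higher in mPGC-1α microglia, with a narrow separation of the groups. It differed by 1.06 (SE 0.45, limma adjusted p = 0.302), or by 0.54 without PGC-1αf/f replicate 3. Gnai2, the inhibitory G protein subunit through which P2RY12 signals, differed by -0.02 (SE 0.14, 95% interval -0.36 to 0.32), or by -0.10 to 0.05 with 1 array left out. Pik3cb, a catalytic subunit of phosphoinositide 3-kinase, read 0.24, 0.46 and 0.65 in PGC-1αf/f cells and -0.46, 0.12 and -0.04 in mPGC-1α cells. It was lower on every mPGC-1α array and differed by -0.57 (SE 0.20, limma adjusted p = 0.244). Kcnk13, the potassium channel THIK-1 that the paper links to microglial ramification, differed by -0.43 with 1 outlier spot left out (SE 0.23, limma adjusted p = 0.375). This was -0.11 without PGC-1αf/f replicate 3 and -0.76 without PGC-1αf/f replicate 2.

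**Figure D4:**
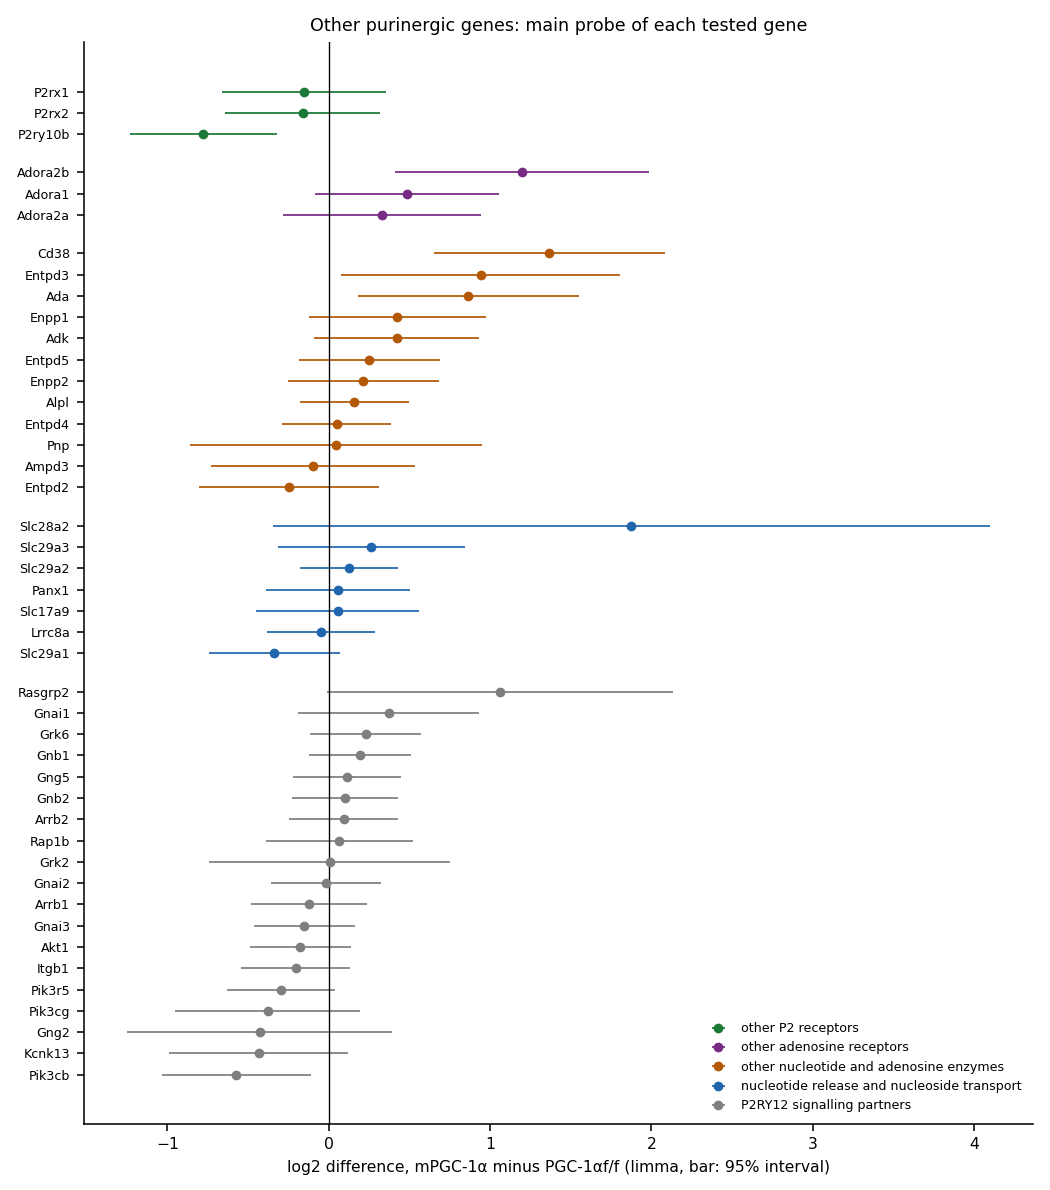
Difference in log2 signal, mPGC-1α minus PGC-1αf/f (x axis), at the main probe of the 44 tested genes of the 5 other purinergic lists, coloured by list, with 95% intervals from limma. The adenosine receptors and most of the enzymes lie to the right of 0 and the signalling partners on both sides, and no gene passed an adjusted p of 0.05.

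Across the 6 arrays, some genes followed P2ry12 more closely than others. With the flagged P2ry12 spot kept, the 5 genes with the most similar pattern among 12411 genes well above background on all arrays were Zfp983, Casp2, Zfp956, Cdk8 and Cerk (Pearson r of 0.99 each over 6 arrays). As 180 genes, or 1.45%, reached an r of 0.9 with only 6 arrays on 1 slide, this is a description and carries no p. Among the genes of the list that were well above background on every array, r with P2ry12 was 0.74 for P2rx7, 0.64 for P2ry13, 0.53 for Adora3, 0.44 for Entpd1 and 0.34 for P2rx4. It was -0.45 for P2ry6 and -0.79 for P2ry2. Of the microglia markers, r ran from -0.40 for C1qb and -0.06 for C1qa through 0.20 for Tmem119 and 0.57 for Cx3cr1 to 0.89 for Siglech. The pattern these 5 genes shared with P2ry12 was the highest value on PGC-1αf/f replicate 3, followed by replicate 1 of the same group.

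P2RY12 is also carried by platelets, and their markers were read as a check. Of 7 platelet markers, Gp9 and Treml1 were tested, and no array showed Itga2b or Ppbp, which define platelets, well above background. Gp9 read 0.85, 0.97 and 0.83 in PGC-1αf/f cells and -0.40, -0.10 and 0.21 in mPGC-1α cells. It differed by -0.98 (SE 0.18, limma adjusted p = 0.112) without overlap. Treml1 differed by 0.42 at its brighter probe (SE 0.52, limma adjusted p = 0.701) and 0.30 at the other, with overlapping groups, and by -0.12 and -0.30 without PGC-1αf/f replicate 2.

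**Figure D5:**
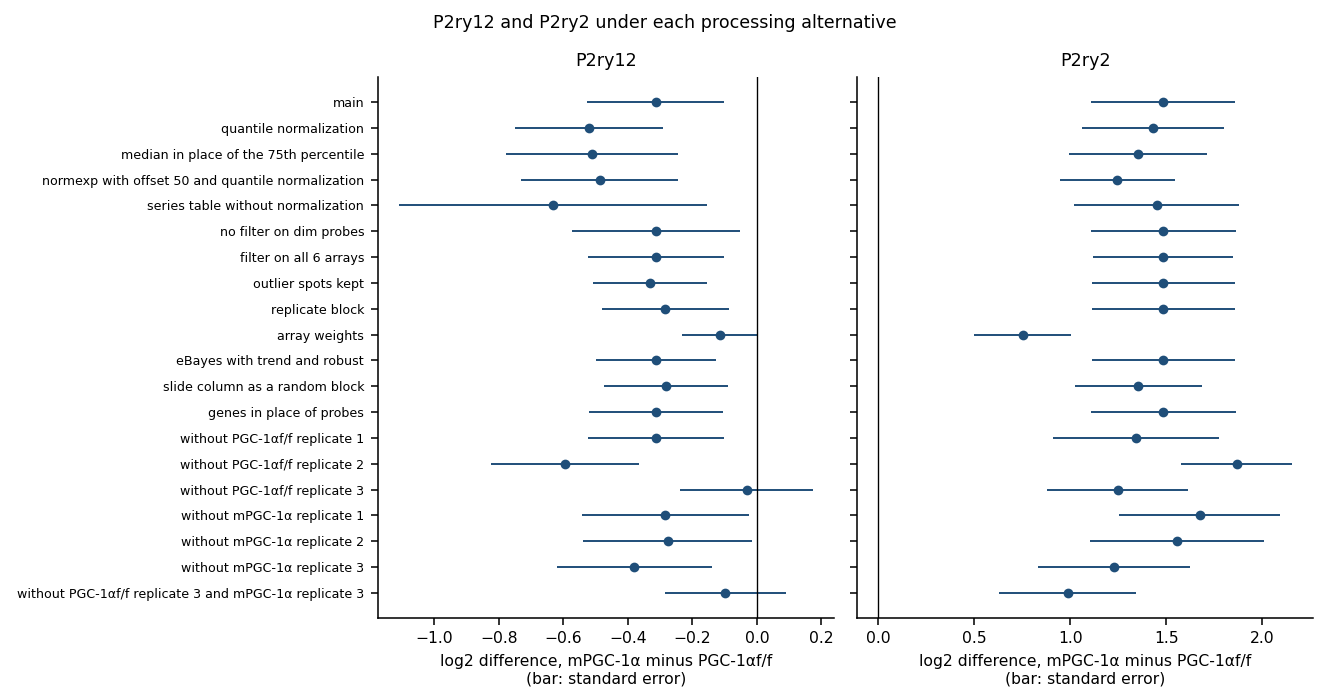
Difference in log2 signal for P2ry12 (left) and P2ry2 (right), mPGC-1α minus PGC-1αf/f (x axis), under the main processing and 19 alternatives (y axis), with the standard error as a line. P2ry12 stays between -0.63 and -0.03 and is closest to 0 without PGC-1αf/f replicate 3, and P2ry2 stays between 0.75 and 1.87.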

How the data were processed

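Expression was measured in 6 samples of P2RY12-selected mouse microglia, 3 per group, grouped and numbered as labelled. Total RNA was amplified by the authors, labelled with Cy5 and hybridized to 1-colour Agilent mouse arrays. The deposited scanner files hold the processed intensity of each spot from Agilent Feature Extraction 11.5.1.1, background-subtracted but not normalized between arrays, with flags for background, saturation and outliers. The methods name GeneSpring for normalization and no test per gene. The deposited series table held the same intensity values to within a relative difference of 0.00497, with 0 columns of other samples.

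Control and outlier-flagged spots were left out. Each array's 75th percentile was subtracted from log2 intensity, and spots of a probe were averaged. Testing required a probe to be well above background throughout 1 group or both, which left 25333 of 56605, of which 25257 gave a p. Accessions were matched to RefSeq (GRCm38.p6, names and gene order only), which gave 33767 probes 1 symbol and 22838 none. A gene was represented by its brightest probe with 6 values, or its brightest probe where none had 6. limma 3.58.1 (lmFit, eBayes, two-sided) in R 4.3.3 with data.table (version 1.17.8) was fitted to all tested probes, with Benjamini-Hochberg adjustment and a threshold of 0.05. The code was tested on simulated data. Where a group never measured a probe, a bound is given: the brighter group's mean over a floor averaged across the dim group's arrays, the floor being the dimmest signal called well above background or the probe's own signal if larger. The number of arrays limits the precision. Figures used matplotlib 3.10.9, numpy 2.4.6 and pandas 2.3.3 in Python 3.11.15.

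The genes and lists were chosen with earlier results of these data known. Named were all 10 genes with every probe, per list up to 3 genes with the largest difference among those with an unadjusted p under 0.05 and no overlap, genomic neighbours, Ppargc1a, Cx3cr1 and the 5 genes most like P2ry12. Other genes were named after their values were seen. Of the 19 alternatives, 18 were planned (other normalizations, normexp with an offset of 50, the deposited table, other filters, outlier spots kept, a replicate block, array weights, other variance priors, slide column as a random block, a single probe per gene, and each array left out). Leaving out replicate 3 of both groups was chosen after seeing the data.

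Among marker lists not described with the results, astrocyte markers had a median difference of 0.03 (-0.28 to 0.23 with 1 array left out), neuron markers 0.27 (-0.01 to 0.49) and erythroid markers 0.20 (-0.42 to 0.68). Xist was well above background on 1 PGC-1αf/f and 2 mPGC-1α arrays and was not tested. Its highest values were on mPGC-1α replicates 3 and 2 and on PGC-1αf/f replicate 2. The Y-linked means of these arrays were -5.88, -1.93 and -2.03, against -1.20 to -0.74 on the rest. Whether the male label holds for them was not tested.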

Additional observations from a re-analysis of the deposited data

How the results depend on the processing

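Across 19 alternatives, P2ry12, P2ry13, P2ry6, P2ry2, Entpd1 and Adora3 kept the direction of their difference, at the probe standing for each gene. Nt5e entered only through the mPGC-1α arrays, and a filter on all 6 arrays removed it. P2rx4 changed sign in 5, to 0.15 with array weights, 0.0172 with slide column taken as a random block (consensus correlation 0.349), 0.17 without PGC-1αf/f replicate 3, 0.13 without mPGC-1α replicate 1 and 0.12 without replicate 3 of both groups. P2rx7 changed sign in 1, to 0.0083 without replicate 3 of both groups. With arrays left out, P2rx4 ranged from -0.18 to 0.17 and P2rx7 from -0.19 to 0.0083. The count of purinergic probes past the threshold was 0 of 13. It became 1 (P2ry2) in the deposited table without normalization, where P2ry2 differed by 1.45 and 1.81% of all probes were called. In that setting the listed genes with 6 values shared an SE of 0.43. The count stayed at 0 whichever array was left out. Between 0 and 25 of all probes passed in those fits, too few for this count to say much about the list. Adjusted p over the alternatives ran from 0.041 to 0.404 for P2ry2 and from 0.313 to 1 for P2ry12. Among the other purinergic genes the count of 0 became 4 with array weights: Adora2b (0.87), Cd38 (0.94), P2ry10b (-0.53) and Slc29a1 (-0.51), under a setting that called 13.8% of all probes. It was 0 in every other alternative. Genes without overlap numbered 3 of 7, with a range of 3 of 7 to 5 of 8 when 1 array was left out. The 5 came without PGC-1αf/f replicate 2. The other alternatives that gave a count had 2 to 4 of 7, or 3 of 9 with outlier spots kept. Groups of 2 and 3 arrays separate more easily by chance, and no share of all probes is given for these settings. A higher count there carries no weight. Centring on the median in place of the 75th percentile shifted the median of all probes to -0.14, and with it P2ry12 differed by -0.51, P2ry13 by -0.25, P2ry6 by 0.04, P2rx4 by -0.15, P2rx7 by -0.26, Entpd1 by -0.39 and Adora3 by -0.28. With quantile normalization these were -0.52, -0.23, 0.08, -0.09, -0.22, -0.29 and -0.26. P2ry12 was -0.63 in the deposited table, and with array weights P2ry12 was -0.11, P2ry13 -0.07, P2ry6 0.12 and P2rx7 -0.01.

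Replicate numbers were not used as pairs, since deviations of equally numbered arrays correlated by 0.14, 0.13 and 0.02. With the replicate block, 0 purinergic probes and 0 of the other purinergic genes passed the threshold. As 0 of all probes passed there, these counts say nothing about the purinergic genes. P2ry2 then differed by 1.48 (limma adjusted p = 0.185) and P2ry12 by -0.28 (limma adjusted p = 0.490). With 2 and 3 arrays in the groups, the 95% interval of P2ry12 held differences from -0.84 to 0.21, and signal over background was too low for a level of P2ry14, or of Nt5e in PGC-1αf/f microglia.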

Other observations

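P2ry14, P2ry13 and P2ry12 share the locus of Med12l with Gpr171, a G protein-coupled receptor found on lymphocytes among other cells, and Igsf10 lies at its end. Gpr171 read -4.23, -2.84 and -4.18 in PGC-1αf/f cells and -2.91, -2.21 and -1.77 in mPGC-1α cells, and was well above background on 1 and 3 arrays. The groups overlapped, and the difference was 1.45 (SE 0.44, limma adjusted p = 0.215), or 0.97 without replicate 3 of both groups, while P2ry12 and P2ry13 on the same locus had lower means. Igsf10 differed by -0.37 (SE 0.30, limma adjusted p = 0.546), or by -0.09 without PGC-1αf/f replicate 3. Atp2a2, near P2rx7 on chromosome 5, differed by -0.29 at the tested probe with the most values, or by 0.04 without PGC-1αf/f replicate 3, and its other tested probe had 1 unflagged array a group.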
